A study of Mus musculus with 9 samples.

Results

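Gap junction genes were followed through the differentiation of mouse primary myoblasts, the dividing precursors of skeletal muscle, into myotubes. The 7 genes described were 6 connexins, Gja1, Gja4, Gja5, Gjb2, Gjc1 and Gjd4, and the pannexin Panx1, out of 19938 genes for which a probe set named that gene alone. They were chosen by symbol with their values across the time course in view, and each was read from its highest-mean probe set, which was also the only one (1 probe set per gene). Their levels and differences are therefore descriptions with no test. The cells were wild-type Balb/c in all 3 groups, with skeletal muscle as tissue of origin. Biotin-labelled total RNA was hybridised to Affymetrix arrays, 3 each for cycling myoblasts (0 days), myotubes at day 2 and myotubes at day 5 of differentiation. The titles place the myotubes in differentiating medium, whereas the growth protocol gives all samples one medium with serum and bFGF. The labels do not say whether replicates were separate cultures or animals, so p-values cover at most array-to-array spread, possibly technical.

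Connexins assemble as a ring into a hemichannel, and hemichannels of neighbouring cells dock to form the gap junction through which ions and small metabolites pass. Myoblasts are coupled in this way before they fuse, mainly through Cx43, the product of Gja1, and adult skeletal muscle fibres are not. Pannexins resemble connexins in topology but work as single-membrane channels, and the Panx1 channel releases ATP that acts on purinergic receptors of the same or nearby cells.

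Values are log2 expression values from RMA, which the submitters ran for each replicate set. The array medians (cycling 4.33 to 4.35, day 2 4.26, day 5 3.98 to 3.99) show that the time points were normalized apart. Each difference is therefore given as deposited and then on a common scale, on which all 9 arrays were brought to 1 distribution by quantile normalization. Over the 16582 genes that passed a filter on low values, the median difference at day 5 against cycling myoblasts came to -0.37 on the deposited and 0.17 on the common scale. At day 5 against day 2 it was -0.40 and 0.05, and at day 2 against cycling myoblasts -0.01 and 0.09. Within a time point 47.9% (cycling), 60.2% (day 2) and 56.7% (day 5) of probe sets had the same value on all 3 arrays, so many SDs below are 0 and understate the error. The p-values that rest on such tied values are too small to be taken at face value. Arrays carry no count of molecules, and the number of arrays limits the precision. In a culture that may hold several cell types, fewer cells of a type and less RNA per cell cannot be told apart.

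The 6 myotube markers were higher in myotubes than in cycling myoblasts, and the 5 myoblast markers followed the labelled stages in part. The summed linear level of 6 myotube markers was 3640 to 4306 for cycling myoblasts, then 20230 to 20330 at day 2 and 14132 to 14598 on day 5. On the common scale it was 3003 to 3524, 18620 to 18971 and 16564 to 16886. At day 5 against day 2, 1 of the 6 (Ckm) was higher and 4 lower on both scales (limma adjusted p below 0.05, any size). Of all genes 56.8% met that limit. The muscle creatine kinase Ckm averaged 6.19 ± 0, 11.01 ± 0 and 11.34 ± 0.051 (SD, n = 3 each) at the 3 times, and the satellite cell factor Pax7 7.88 ± 0.019, 5.73 ± 0 and 4.97 ± 0. The summed myoblast markers differed little at day 2, at 5197 to 5581 on cycling arrays, 5177 to 5201 on day 2 arrays and 3557 to 3641 on day 5 arrays. On the common scale these sums were 4541 to 4805, 4722 to 4777 and 4419 to 4447, so most of the day 5 difference in the sum was seen as deposited alone. Of these 5, the muscle intermediate filament gene Des was higher in myotubes (1.27 and 1.48 at day 2, 1.13 and 1.69 at day 5). The M-cadherin gene Cdh15 was higher at day 2 (0.36 and 0.46). At day 5 against cycling myoblasts 4 of the 5 were at least 2-fold lower on both scales, beside 12.3% of all genes. These were Pax7, Myod1 (-2.04 and -1.43), Myf5 (-2.39 and -1.55) and Cdh15 (-1.95 and -1.10).

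Gja1 and Gja5 stand for the 2 opposite courses described below, and the 250 bases before their annotated starts are shown from the RefSeq promoter table (build GRCm38.p6), which matched 5 of the 7 genes. Both lie on the plus strand, Gja1 at chr10:56377050-56377299 and Gja5 at chr3:97032152-97032401. Capitals in Gja1 mark an E-box and an AP-1 motif that overlap, and capitals in Gja5 mark a GC box.
Gja1: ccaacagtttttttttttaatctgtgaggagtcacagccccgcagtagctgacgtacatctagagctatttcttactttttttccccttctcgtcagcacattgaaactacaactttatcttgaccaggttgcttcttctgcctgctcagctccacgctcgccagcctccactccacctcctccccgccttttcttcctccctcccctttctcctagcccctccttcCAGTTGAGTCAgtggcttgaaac
Gja5: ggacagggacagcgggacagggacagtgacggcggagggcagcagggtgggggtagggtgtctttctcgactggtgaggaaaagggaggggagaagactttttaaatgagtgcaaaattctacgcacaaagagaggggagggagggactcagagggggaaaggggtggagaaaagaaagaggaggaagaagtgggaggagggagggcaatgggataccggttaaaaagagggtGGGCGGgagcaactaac
The 7 motifs searched on both strands were the E-box (CANNTG), AP-1 (TGANTCA), CRE (TGACGTCA), the TATA box (TATAAA), the GC box (GGGCGG), an NFAT core (GGAAA) and TEAD (CATTCC). Of 32851 promoter windows of this length 66.2% held the E-box, 6.75% the AP-1 motif, 1.55% the CRE, 12.4% the TATA box, 32.7% the GC box, 55.6% the NFAT core and 12.6% the TEAD motif. The Gja1 window held CAGTTG, which begins 23 bases before the start, and TGAGTCA, which begins 19 bases before it, besides 1 NFAT core. In Gja5 there were 2 NFAT cores and the GC box, 17 bases before the start. The Gjb2 window held an E-box and 2 GC boxes, Gja4 a GC box and an NFAT core, and Panx1 an NFAT core. A match describes letters in the window and does not show a bound site.

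Gja1 and Gjc1, the connexins that stood high in cycling myoblasts, were at least 2-fold lower in myotubes at both times on both scales, by different courses. Gja1 was lowest at day 2 and partly higher again at day 5, whereas Gjc1 was lowest at day 5. Gja1 encodes Cx43, the most widely expressed connexin, and Gjc1 encodes Cx45, known from the early heart and from vascular smooth muscle.

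Gja1 read 9.05, 9.01 and 9.01 in the 3 cycling myoblast arrays, 5.85, 5.85 and 5.67 at day 2, and 6.43, 6.39 and 6.45 at day 5. Every myotube array lay below every myoblast array, and every day 5 array above every day 2 array. The means were 9.02 ± 0.022, 5.79 ± 0.099 and 6.42 ± 0.030 (SD, n = 3 each). Day 2 against cycling myoblasts, Gja1 differed by -3.23 (deposited) and -3.03 (common scale), which is 9.40-fold and 8.15-fold lower. At day 5 it was -2.60 and -1.74, or 6.06-fold and 3.34-fold lower. Between the myotube stages Gja1 was higher at day 5 than at day 2, by 0.63 as deposited and 1.29 on the common scale, so the partial return reached 2-fold on the common scale alone. By its place among all probe sets of its array, Gja1 stood at percentiles 93.5 to 93.9 among cycling arrays, 68.4 to 70.0 on day 2 arrays and 81.7 to 82.2 on day 5 arrays. It lay above the array median throughout.

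Gjc1 read 7.49 on all 3 cycling myoblast arrays, 4.18 on all 3 day 2 arrays and 3.27 on all 3 day 5 arrays. The 3 groups did not overlap, and the order was the same on the common scale (7.10 ± 0.025, 4.11 ± 0.0032 and 3.37 ± 0.0036). Its difference was -3.30 and -2.99 at day 2 against cycling myoblasts, or 9.87-fold and 7.95-fold lower, and -4.22 and -3.72 at day 5. The step at day 5 against day 2 was -0.92 and -0.73, short of 2-fold on either scale. In myotubes Gjc1 lay under the array median on every array, at percentiles 48.2 at day 2 and 33.6 to 33.7 at day 5. Exactly its value was held by 30 to 35 other probe sets at day 2 and by 45 to 58 at day 5. No background reading came with these values, so levels under the median are not shown to lie above background, and the size of such a difference is not exact.

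**Figure D1:**
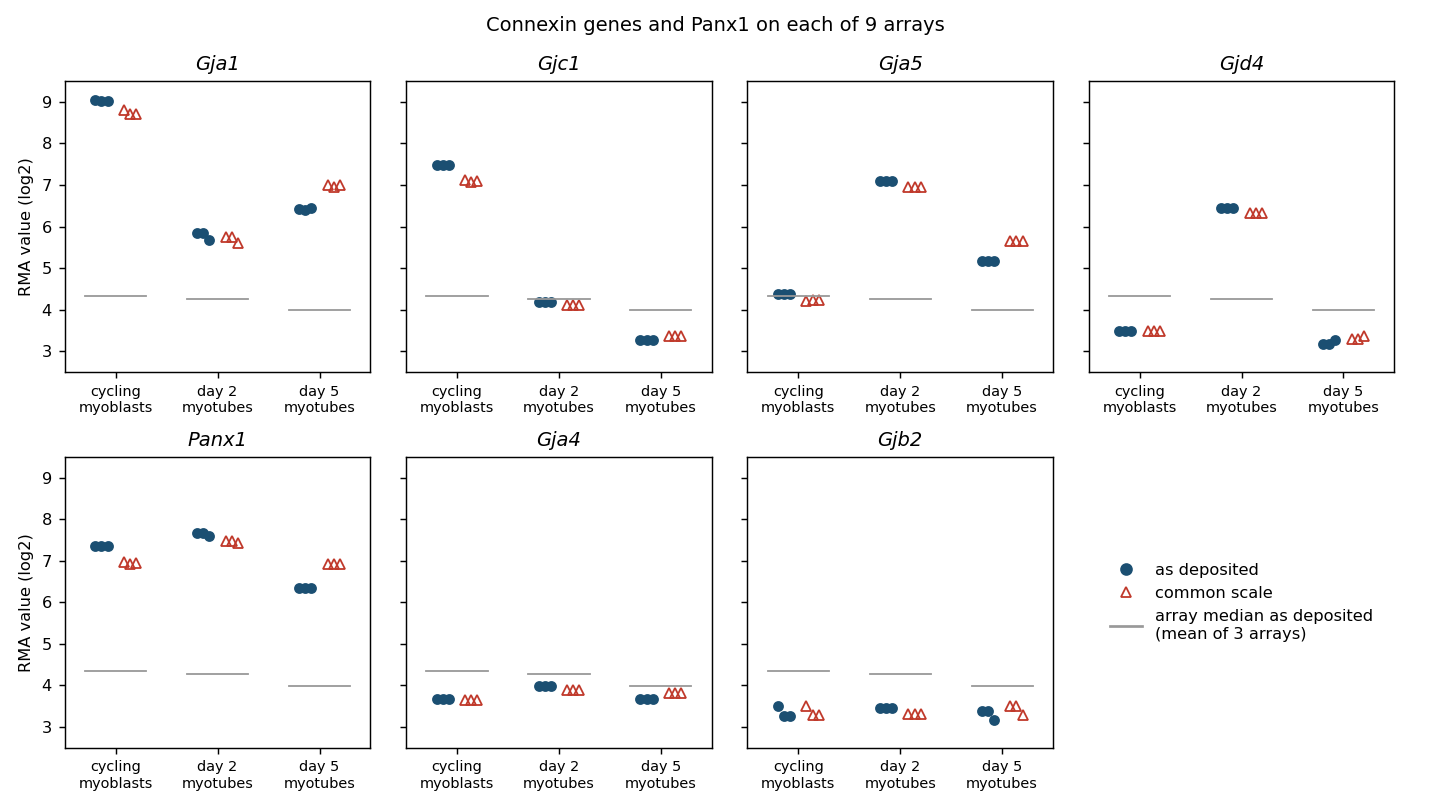
Level of each of the 7 genes on each of 9 arrays (log2, vertical axis) by time point, with circles as deposited, triangles on the common scale and a grey line at the array median. Gja1 and Gjc1 are high in cycling myoblasts, Gja5 and Gjd4 at day 2, and Gja4 and Gjb2 lie under the median line at all times.

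Gja5 and Gjd4 were high at day 2, at least 2-fold above cycling myoblasts and above day 5 on both scales. Gjd4 returned to a low value by day 5, and Gja5 did so in part. Gjd4 encodes Cx39, a connexin known in the mouse from developing skeletal muscle, and Gja5 encodes Cx40, known from the atria and conduction system of the heart and from arterial endothelium.

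Gjd4 read 3.49 on all 3 cycling myoblast arrays and 6.46 on all 3 day 2 arrays. At day 5 it read 3.17, 3.17 and 3.26. The day 2 arrays stood apart from all others, and the day 5 arrays lay a little under the myoblast arrays. Gjd4 differed by 2.97 (deposited) and 2.83 (common scale) at day 2 against cycling myoblasts, and -3.26 and -3.02 at day 5 against day 2, a 9.57-fold and 8.08-fold lower level. Day 5 against cycling myoblasts the difference was -0.29 and -0.18, but 0.06 when each array was centred on its own median, so the order of these 2 low levels is not settled. Gjd4 stood at percentiles 75.9 at day 2, against 36.0 to 36.3 in cycling myoblasts and 31.6 to 33.5 at day 5. The cycling value was shared with 387 to 389 other probe sets on each array, and the lower day 5 value with 759 to 802 on 2 arrays. The high level of Gjd4 was thus measured at day 2 alone, and its size against either low level is not exact.

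Gja5 read 4.38 on all 3 cycling myoblast arrays, 7.11 on all 3 day 2 arrays and 5.17 on all 3 day 5 arrays. The groups did not overlap, and the day 5 level lay between the others. The difference was 2.73 on both scales at day 2 against cycling myoblasts, a 6.64-fold and 6.62-fold higher level. At day 5 against day 2 Gja5 differed by -1.94 (deposited) and -1.29 (common scale). Against cycling myoblasts the day 5 level was higher by 0.79 as deposited and by 1.44 on the common scale, so it reached 2-fold on the common scale alone. In cycling myoblasts Gja5 stood at the middle of its arrays, at percentiles 50.4 to 50.6 and with 156 to 158 other probe sets at its exact value, against 81.7 at day 2 and 68.9 to 69.0 at day 5.

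Because Gja5 and Gja4 are also connexins of endothelium, the endothelial markers were read beside them. The 8 endothelial markers had a summed linear level of 95.5 to 96.3 on cycling arrays, 105.9 to 106.7 on day 2 arrays and 103.8 to 104.1 on day 5 arrays. On the common scale the sums were 90.4 to 91.9, 98.7 to 100.03 and 120.5 to 121.2, highest at day 5. At day 2, when Gja5 was highest, 6 of the 8 lay under the array median, the defining genes Pecam1 (3.26 ± 0) and Cdh5 (3.41 ± 0.059) among them, and Vwf and Cldn5 lay above it. Against cycling myoblasts 0 of 7 tested changed 2-fold on both scales at day 2 (limma, 7 at an unadjusted p under 0.05 as deposited), beside 6.04% higher and 8.41% lower of all genes. With no limit on size, 4 of the 7 (Cdh5, Tek, Tie1 and Cldn5) were higher on both scales at an adjusted p below 0.05. The 2 lower ones were Pecam1 (-0.04 and -0.20) and Kdr (-0.05 and -0.19). Of all genes 80.2% met that adjusted p in the same direction on both scales. The part of these markers in the level of Gja5 was not tested.

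Among the 6 pericyte and smooth muscle markers the sum was 262 to 264, 271 and 178 to 180 at the 3 times as deposited, and 207 to 212, 247 and 245 to 246 on the common scale, so that the day 5 sum was lower than the cycling sum on the first scale and higher on the second. There Abcc9, a potassium channel regulator that muscle also expresses, averaged 4.26 ± 0, 7.47 ± 0 and 6.38 ± 0.016, and Rgs5 6.65 ± 0, 2.64 ± 0 and 2.66 ± 0 (n = 3 each). The 7 fibroblast markers summed to 589 to 603 on cycling arrays, 167 on day 2 arrays and 128 to 129 on day 5 arrays, chiefly through the collagen gene Col3a1 (8.92 ± 0.023, 6.06 ± 0 and 4.77 ± 0). That sum was lower in myotubes on the common scale too (490 to 494, 157 to 158 and 166 to 167), as Gja1 and Gjc1 were, and its part in their levels was not tested. The other markers did not share this course at day 5 against cycling myoblasts. With no limit on size, Pdgfra (0.07 and 0.56) and Tcf21 (0.36 and 0.50) were higher on both scales (limma adjusted p below 0.05). Only Col3a1 was lower on both, of 5 tested. Of all genes 67.8% met that limit. Of the 7, Dcn and Lum lay under the filter value on all 9 arrays and Tcf21 under the array median, Col1a1, Col3a1 and Thy1 lay above the median on all 9, and Pdgfra did at day 5. The 5 macrophage markers summed to 55.7, 73.9 and 50.3 as deposited (52.1 to 52.4, 69.5 to 69.9 and 55.2 to 55.3 on the common scale), with 4 of 5 under the array median at day 2 (Itgam above it), and the 2 Schwann cell markers measured to 24.3, 35.6 and 26.6 (22.8 to 23.0, 33.5 to 33.7 and 30.46 to 30.5). As deposited the endothelial, pericyte, macrophage and Schwann cell sums were all highest at day 2, as Gja5 and Gjd4 were. At day 2 against cycling myoblasts 1 of the 6 pericyte markers (Abcc9) was 2-fold higher on both scales and 1 (Rgs5) lower. Of the macrophage markers 1 of 4 tested (Itgam, 1.96 and 1.86) was higher and 0 lower. Of the Schwann cell markers 1 of 2 (S100b, 1.43 and 1.28) was higher and 0 lower. Itgam and S100b lay under the filter value in cycling myoblasts, so these sizes are not exact. Of the fibroblast markers 0 of 5 tested were higher and 1 (Col3a1) lower. Over all genes 6.04% were higher and 8.41% lower. Many of these markers lay under the array median, and the filter value too was highest at day 2 (3.32 to 3.35, against 3.13 to 3.14 on cycling and 3.10 to 3.13 on day 5 arrays). The part of these cells in the levels of Gja5 and Gjd4 was not tested.

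Panx1, the ATP release channel, differed little at day 2, and its day 5 level depended on the scale. It read 7.34, 7.35 and 7.35 in cycling myoblasts, 7.65, 7.65 and 7.59 at day 2, and 6.35 on all 3 day 5 arrays. As deposited the 3 groups did not overlap. On the common scale the day 2 level was still highest (7.46 ± 0.035), while cycling myoblasts (6.94 ± 0.015) and day 5 (6.92 ± 0.0094) overlapped. The difference was 0.29 and 0.52 at day 2 against cycling myoblasts, -0.996 and -0.02 at day 5, and -1.28 and -0.54 at day 5 against day 2, where it passed 2-fold as deposited alone. Panx1 stood at percentiles 81.4 to 86.1 on all 9 arrays, always above the median.

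Gja4 and Gjb2 were only at low levels at every time. Gja4, which encodes Cx37 of endothelium and oocytes, read 3.67 on all 3 cycling myoblast arrays, 3.99 at day 2 and 3.66 at day 5, percentiles 39.2 to 44.6. Its value was that of 149 to 396 other probe sets on each array. Gjb2, which encodes Cx26 of the inner ear and epidermis, read 3.51, 3.26 and 3.26, then 3.44 on all 3 day 2 arrays, then 3.38, 3.38 and 3.17 at day 5. Its groups overlapped between cycling myoblasts and either myotube stage on both scales. Both genes lay under the array median on all 9 arrays, and the largest difference of either, as deposited or on the common scale, was -0.33 (Gja4, day 5 against day 2). Low levels were also those of Gjd4 in cycling myoblasts and at day 5, and of Gjc1 in myotubes.

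**Figure D2:**
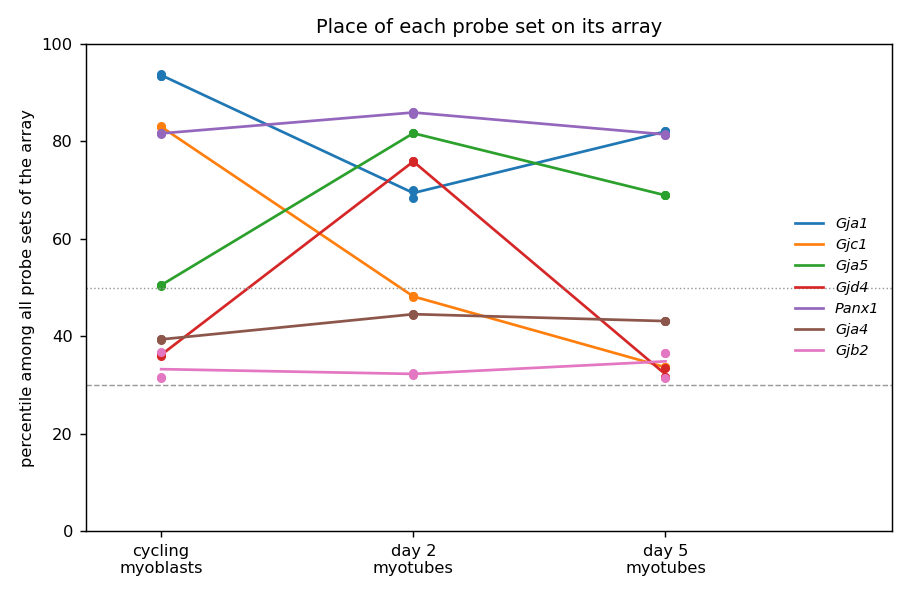
Percentile of each gene's probe set among all probe sets of its array (vertical axis) by time point. Points are arrays, lines join the means of 3 arrays, the dotted line is the array median and the dashed line the 30th percentile used as filter. Gjd4 and Gja5 peak at day 2, Gjc1 drops below the median, Gja1 dips and partly returns, Panx1 stays between 81.4 and 86.1.

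All 7 genes passed the filter, which asks for a value above the 30th percentile of the array on at least 3 arrays. At day 2 against cycling myoblasts 2 of the 7 were at least 2-fold higher on both scales (Gja5 and Gjd4) and 2 lower (Gja1 and Gjc1), beside 6.04% higher and 8.41% lower among all genes tested. Day 5 against cycling myoblasts 0 were higher and 2 lower (Gja1 and Gjc1), beside 4.44% and 12.3%, and day 5 against day 2 0 were higher and 2 lower (Gja5 and Gjd4), beside 0.766% and 3.67%. All 3 comparisons rest on the same 9 arrays and share groups, and nothing is read from these counts, since the genes were chosen with them known. In limma's fit, an adjusted p below 0.05 at any size was given to 93.3%, 95.2% and 94% of all genes as deposited at day 2 and day 5 against cycling myoblasts and at day 5 against day 2. An adjusted p alone therefore separates few genes in these data, and a 2-fold size on both scales is required here of a change.

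**Figure D3:**
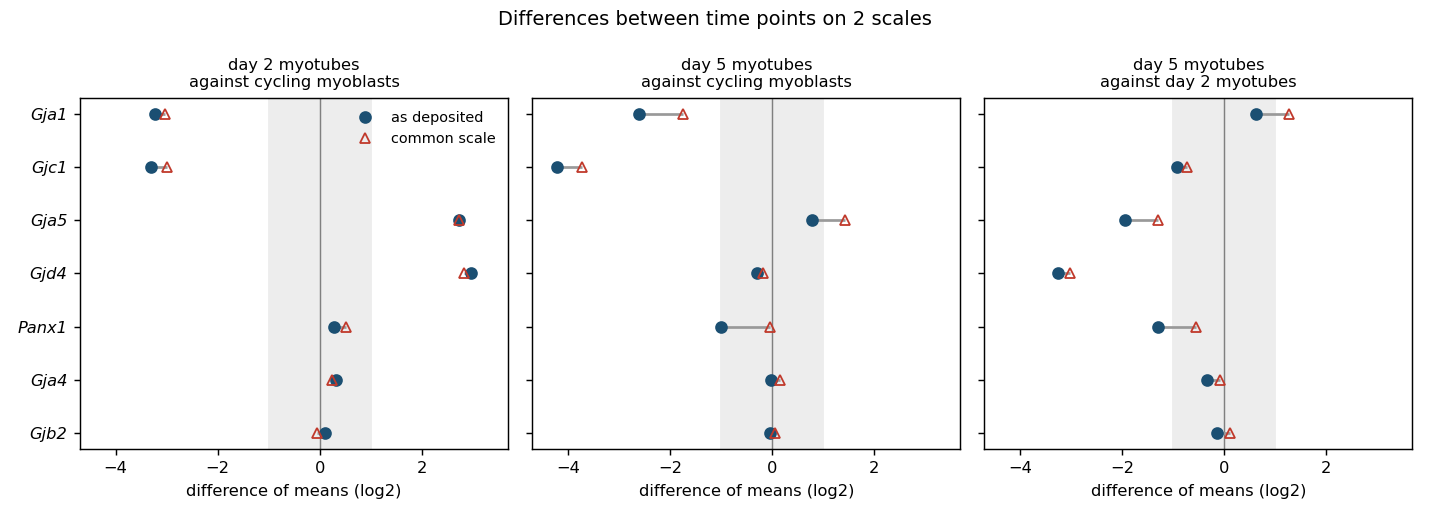
Difference of group means (log2, horizontal axis) for the 7 genes in the 3 comparisons, circles as deposited and triangles on the common scale, with differences under 2-fold shaded. At day 2 the circles and triangles lie close together, and at day 5 they part, as for Panx1 against cycling myoblasts (-0.996 and -0.02).

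A muscle microRNA, miR-206, is known as a repressor of Gja1 in differentiating myoblasts, and its mature form is shown because its precursor has a probe set. The sequence is from RefSeq (GRCm38.p6, chr1:20679055-20679076, plus strand), with the seed, bases 2 to 8, in capitals.
miR-206-3p: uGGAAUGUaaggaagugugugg
The probe set of the precursor gene Mir206, added after the data were seen, averaged 3.69 ± 0.039 on cycling arrays, 5.37 ± 0.032 on day 2 arrays and 1.89 ± 0 on day 5 arrays (n = 3 each). It was higher at day 2 by 1.68 as deposited and 1.65 on the common scale and lower at day 5 against day 2 by 3.48 and 3.28, and these values carry no test. The day 5 level lay under the filter value and the cycling level under the array median, so the sizes are not exact. Its highest level came at the time of the lowest Gja1 level. At day 5 against cycling myoblasts both were lower, Mir206 by 1.80 and 1.63 and Gja1 by 2.60 and 1.74. The part of miR-206 in the level of Gja1 was not tested. A probe set on a precursor does not measure the mature form.

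The genes whose courses came nearest to Gjd4 over the 9 arrays were found on the common scale by Euclidean distance after each profile was centred on its mean. For Gjd4 these were the adenylyl cyclase Adcy8 (distance 1.00, Pearson r 0.97), the repressor Ripply1 (1.20, r 0.97) and Gatm, an enzyme of creatine synthesis (1.23, r 0.96). Adcy8 averaged 3.02 on cycling myoblast arrays, 6.18 on day 2 arrays and 3.54 on day 5 arrays, and Gatm 7.39, 9.88 and 7.09. All 3 were high at day 2, and their day 5 levels lay above cycling myoblasts by 0.53 to 0.62 on the common scale, where Gjd4 differed by -0.18. As deposited Gatm differed by -0.30 there, so its order of these 2 times turns with the scale. Nearest to Gja1 were the kinetochore gene Ndc80 (0.46, r 0.99), the prostaglandin synthase Ptgs2 (0.47, r 0.99) and the histone chaperone Asf1b (0.51, r 0.99). Ptgs2 averaged 8.56, 5.43 and 6.25 and Asf1b 9.23, 6.09 and 7.05, with the same dip at day 2 and partial return at day 5. Ndc80 averaged 6.32, 3.10 and 3.75. Its day 2 level lay under the filter value, so the depth of its dip is not exact. These likenesses describe 9 arrays in 3 groups and carry no test.

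Of 12 other connexin and pannexin genes analysed here, each with a probe set that named it alone, 8 passed the filter. They remained after the 7 genes were chosen with the values in view, so their counts are descriptions only. At day 2 and at day 5 against cycling myoblasts 0 of 8 changed at least 2-fold on both scales (limma, 8 and 7 at an unadjusted p under 0.05 as deposited), beside 6.04% higher and 8.41% lower of all genes at day 2 and 4.44% and 12.3% at day 5. At day 5 against day 2 1 of 8 fell, beside 3.67% of all genes, and it was Gja3, which encodes Cx46 of the lens. Gja3 averaged 4.91 ± 0 on cycling myoblast arrays, 5.52 ± 0 on day 2 arrays and 4.14 ± 0 on day 5 arrays, with a difference of -1.38 and -1.05 at day 5 against day 2 (limma adjusted p = 2.05e-24 and 1.7e-13). Its level was thus highest at day 2 as well, 0.61 and 0.81 above cycling myoblasts, without reaching 2-fold. The 8 had a median difference, as deposited, of 0.33 at day 2 against cycling myoblasts, -0.15 at day 5 and -0.39 at day 5 against day 2, beside -0.01, -0.37 and -0.40 over all genes.

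Of the others, Gjd3 and Panx2 lay above the array median on all 9 arrays. Gjd3, which encodes a connexin of the cardiac conduction system in the mouse, averaged 5.72 ± 0 on cycling myoblast arrays, 5.997 ± 0 on day 2 arrays and 5.75 ± 0.031 on day 5 arrays. At day 5 against day 2 it differed by -0.25 (deposited) and 0.39 (common scale), so its sign turned. Panx2, a pannexin best known from brain, averaged 5.29 ± 0, 5.15 ± 0 and 4.84 ± 0, lower in myotubes as deposited and higher on the common scale (by 0.17 at day 2 and 0.36 at day 5). Gja6, Gja10, Gjb1 and Panx3 lay under the array median on all arrays at 2.75 to 3.90. Gjb5 lay near it, under the median in cycling myoblasts (4.16 ± 0.088) and just above it at day 2 (4.40 ± 0.016) and day 5, at percentiles of at most 52.6. Gjb6, Gjc3, Gjd2 and Gje1 did not pass the filter, with levels of 2.15 to 3.10.

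Of the partners of Cx43, which are scaffold, adhesion, trafficking and turnover proteins, 12 of 13 listed were measured and tested, and 6 fell by day 5. Against cycling myoblasts 6 of 12 fell and 0 rose at least 2-fold on both scales at day 5, beside 12.3% and 4.44% of all genes, and 1 fell and 1 rose at day 2, close to the 8.41% and 6.04% of all genes. At day 5 against day 2 4 fell and 0 rose, beside 3.67% and 0.766%. Their median difference at day 5 was -1.74 (deposited) and -0.998 (common scale), beside -0.37 and 0.17 over all genes. The partner list was chosen with earlier results of these data known, so its counts and p-values are descriptions and do not test the list.

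Cav1, the caveolar coat protein, averaged 7.61 ± 0 on cycling myoblast arrays, 6.02 ± 0 on day 2 arrays and 4.48 ± 0 on day 5 arrays, a fall of 3.12 and 2.38 (day 5 against cycling myoblasts, limma adjusted p = 1.57e-26 and 2.36e-13). It was the 1 partner that fell at day 2. Dbn1, the actin-binding drebrin, averaged 9.27 ± 0.035, 8.23 ± 0.0048 and 6.26 ± 0. The scaffold Tjp1 (ZO-1) averaged 8.48 ± 0.15, 7.93 ± 0.032 and 5.96 ± 0, and the N-cadherin gene Cdh2 9.84 ± 0.043, 9.46 ± 0 and 7.38 ± 0.015. Cav1, Dbn1, Tjp1 and Cdh2 made up the 4 that fell between day 2 and day 5, the interval in which Gja1 was partly higher again. The ubiquitin ligase Smurf2 (-2.05 and -1.14) and the junction and signalling protein Ctnnb1 (-1.83 and -1.06) completed the 6 at day 5. Against cycling myoblasts Dbn1 differed by -3.01 and -2.16, Tjp1 by -2.52 and -1.65 and Cdh2 by -2.46 and -1.64, and the largest adjusted p of these 5 genes on either scale was 9.73e-08 (limma). The trafficking gene Cnst, named outside the rule as the 1 that rose at day 2, was 1.03 and 1.28 above cycling myoblasts (limma adjusted p = 2.44e-24 and 2.34e-13), and 0.60 and 1.55 above them at day 5.

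**Figure D4:**
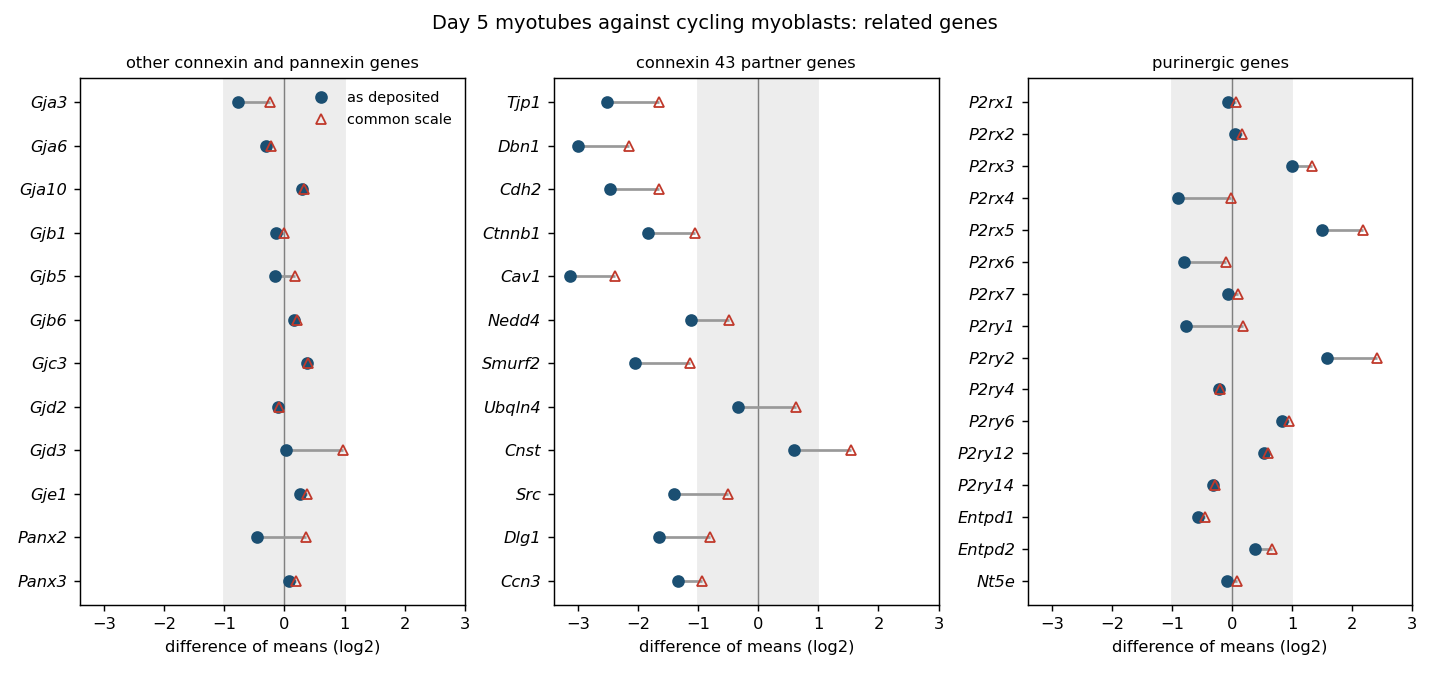
Difference of means at day 5 against cycling myoblasts (log2, horizontal axis) for other connexins and pannexins, Cx43 partners and purinergic genes, circles as deposited and triangles on the common scale, with differences under 2-fold shaded. In the middle panel 6 genes lie left of the shaded band on both scales, and in the right panel P2rx5, P2ry2 and P2rx3 lie right of it.

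The purinergic list holds receptors of the ATP that Panx1 channels release and enzymes that break it down, and a few receptors rose in myotubes. Of 16 genes 15 were tested. This list too was chosen with earlier results of these data known, so its counts and p-values are descriptions. At day 2 against cycling myoblasts 1 of 15 rose and 0 fell at least 2-fold on both scales, close to the 6.04% of all genes that rose, beside 8.41% that fell. At day 5 3 rose and 0 fell, beside 4.44% and 12.3% of all genes, and at day 5 against day 2 1 rose and 0 fell, beside 0.766% and 3.67%. P2rx5, an ATP-gated channel known from skeletal muscle, averaged 4.26 ± 0 on cycling myoblast arrays, 6.36 ± 0.014 on day 2 arrays and 5.75 ± 0 on day 5 arrays. It was higher by 2.10 and 2.12 at day 2 (limma adjusted p = 2.92e-14 and 1.27e-13) and by 1.498 and 2.18 at day 5, from a cycling level under the array median. P2ry2, a G protein-coupled receptor of ATP and UTP, averaged 4.88 ± 0, 5.46 ± 0 and 6.46 ± 0, and was higher at day 5 by 1.59 and 2.41 (limma adjusted p = 2e-25 and 7.08e-15). It also made up the 1 rise between day 2 and day 5. The third gene at day 5, P2rx3 (1.00 and 1.33), lay under the array median in cycling myoblasts, and with the probe sets of each gene averaged 2 genes rose in place of 3. P2rx7 and P2rx4, named like P2rx3 after their values were seen, averaged 3.56 and 4.93 at day 5, against 3.63 and 5.84 in cycling myoblasts, and neither changed 2-fold.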

How the data were processed

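The deposited log2 values are RMA output for 35556 probe sets on 9 arrays, made by the authors for each replicate set (per the submitters' processing notes and the series design text). No sources used here give a software version. Of the probe sets, 21789 were annotated with 1 gene, 1621 with several and 12146 with none. Each gene was read from its brightest probe set by mean, and 16582 of 19938 genes passed the filter (over the 30th percentile of the array, 3 arrays or more). A linear model with 3 group means used every array (limma, version 3.58.1, under R 4.3.3), with Benjamini-Hochberg adjustment over all genes tested. It was run on the deposited values and on values quantile-normalized over the 9 arrays, the common scale. A gene changed if its adjusted p was below 0.05 and its difference at least 1 (2-fold) on both scales. The fit was tested on simulated data with normally distributed spread and no tied values. That check does not cover the tied values of these arrays.

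The 7 genes, the related gene lists and the markers were chosen with earlier results of these data known. Named were the 7 genes, all other measured connexins and pannexins, at most 8 partner and purinergic genes changed on both scales, by size, and the 3 nearest profiles to Gjd4 and Gja1. The alternatives were median centring, other filters, averaged probe sets, each array left out, a replicate block, and moderation with trend and robust on.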

Additional observations from a re-analysis of the deposited data

How the results depend on the processing

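Totals of changed genes, higher and lower together, were compared here, each called on 1 scale, as deposited unless another is named. Of the alternatives run, only another scale moved such a total by over 1.5 times, and only at day 5 against day 2. All other totals moved by at most 1.5 times. Counts by direction moved by more in places, as given below. At day 5 against day 2, 2675 genes changed at least 2-fold as deposited (127 higher, 2548 lower), against 1070 on the common scale (461 and 609) and 1521 with each array centred on its median (234 and 1287). The split also moved at day 5 against cycling myoblasts, from 736 higher and 4840 lower as deposited to 1960 and 2040 on the common scale, and at day 2 against cycling myoblasts from 1060 and 1994 to 1281 and 1402. The Cx43 partners changed between day 5 and day 2 were 7 as deposited and 4 on the common scale, and the purinergic genes 1 as deposited and 2 on either other scale. Time points were normalized apart before deposit, so a general shift of one against another and the normalization cannot be told apart.

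No difference of the 7 genes that reached 2-fold as deposited changed sign under any of the 16 alternatives. Small differences did: Gjb2 in all 3 comparisons, with -0.06 on the common scale at day 2 against cycling myoblasts, and Gja4 and Gjd4 at day 5 against cycling myoblasts (0.35 and 0.06 with median centring). The filter at the array median left out Gja4 and Gjb2. Leaving out each array in turn gave 2940 to 3052, 5422 to 5574 and 2631 to 2692 genes changed at least 2-fold as deposited in the 3 comparisons. The related lists gave the same counts as with all arrays. These counts rest on the deposited scale alone. On both scales, as required of a change above, 2396, 2776 and 736 genes changed with all arrays. Same-numbered replicates did not deviate together (r of deviations from group means -0.0038 to 0.041, against -0.058 to 0.041 for different numbers). With the replicate block 3054, 5576 and 2675 genes changed as deposited, as without it, and the block changed no count in the lists. In this balanced design a block leaves every difference of means as it was, and most genes pass the adjusted p. These counts could therefore hardly move and do not test a pairing. Many levels rest on values shared by many probe sets, which limits low levels more than replicate spread shows.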
